A study of Rattus norvegicus with 26 samples.

Results

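The miR-29 family is a group of 3 closely related mature miRNAs, miR-29a, miR-29b and miR-29c, which were followed here in rat liver after partial hepatectomy (PH). The members were taken by name, as the unstarred rno-miR-29a, rno-miR-29b and rno-miR-29c features of an Agilent rat miRNA microarray, 3 of the 677 miRNAs on it. The 26 arrays held 1 liver each from male Sprague-Dawley rats, a wild-type outbred stock, and covered 9 groups. The normal group (n = 3) was right lobe from rats without PH, although 1 label calls these livers sham. The other groups were right lobe remnants harvested 6, 12, 24 or 36 hours (H) after removal of about 1/3 of the liver (1/3PH, n = 2 at 6H and 3 at the other times) or about 2/3 of it (2/3PH, n = 3 at each time). The age of the rats is not given in the sources used here. For some arrays the source label gives a time 1 or 2 hours later than the title, and the titles were followed. Each value comes from a different rat, so the spread between arrays holds both biological and technical variation.

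miRNAs are short RNAs that pair, mainly through bases 2 to 8 (the seed), with messenger RNAs and lower their output. miR-29 is known for targeting collagens and other matrix genes, the de novo DNA methyltransferases and the survival protein MCL1. In liver it is known to be present in both hepatocytes and stellate cells, to fall when stellate cells become activated during scarring, and to be repressed by TGF-beta and by the growth regulator MYC.

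All 3 members were matched to RefSeq mature sequences on the rat assembly GRCr8, where the unstarred array names correspond to the 3p arms. The sequences are printed 5′ to 3′, with the seed in capitals, because the shared seed is what makes these miRNAs 1 family and because the few bases that differ are all that separates them on an array.
miR-29a-3p: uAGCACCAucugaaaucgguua
miR-29b-3p: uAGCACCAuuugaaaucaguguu
miR-29c-3p: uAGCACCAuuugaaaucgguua
The seed AGCACCA occurred in 3 of the 693 mature rat miRNAs of the table, which are the 3 members. Counted from 1 at the 5′ end, miR-29a and miR-29c differ at 1 position, C10U, with miR-29a first. From miR-29c to miR-29b there are 3 substitutions within the first 22 bases, G18A, U21G and A22U, and miR-29b is 1 base longer. How far each probe also bound the other members was not tested.

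The members come from 4 hairpin genes in 2 pairs. On chromosome 4 (GRCr8, minus strand), Mir29a gives miR-29a-3p from chr4:60617968-60617989, and Mir29b1 gives miR-29b-3p from chr4:60618342-60618364, with 291 bases between the hairpins. On chromosome 13 (plus strand), Mir29b2 gives the same miR-29b-3p from chr13:109098882-109098904, and Mir29c gives miR-29c-3p from chr13:109099412-109099433, with 447 bases between the hairpins. The miR-29b signal is therefore the sum of both loci, and the array cannot say how much came from each.

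Signals are given as the processed signal of a miRNA, summed over its 2 probes and divided by the 75th percentile of 109 probes that were well above background on every array. This scaled signal has no absolute meaning, so the level of 1 member was not set against that of another. It was compared between arrays, for 1 member at a time or as a ratio of 2 members on the same array. The members were among the 82 miRNAs detected on all 26 arrays. The other arrays had 118 to 155 detected miRNAs and a total signal of 58458 to 95463 units, whereas replicate 2 of the 1/3PH 12H group had 91 and 18196, and results that rest on that array are given without it too. The authors had left out another 1/3PH array for poor quality. Arrays lay on 6 slides scanned on 3 days. Each normal liver lay on a different slide and was scanned on a different day from the other normal livers, beside operated livers. Both probes of each member were well above background on 26 of 26 arrays. In all tissue values below, fewer cells of a type and less of the miRNA per cell cannot be told apart.

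In normal liver miR-29a had scaled signals of 5.54, 4.73 and 5.19. After 1/3PH the signals were 5.22 and 5.10 at 6H, then 4.05, 1.78 and 4.18 at 12H, where the low value is the dim array. The later 1/3PH livers read 4.94, 5.13 and 3.90 at 24H and 5.53, 5.55 and 5.71 at 36H. All but the 3.90 were within the normal range or above it. After 2/3PH the signals were 5.14, 4.36 and 3.73 at 6H and 4.01, 3.91 and 4.04 at 12H. All 6 arrays at 12H lay below the 3 normal livers, in both operations. At 24H after 2/3PH the arrays spread from 4.22 to 6.10, with 2 of the 3 below the normal livers. At 36H they read 4.63, 4.29 and 4.07, the highest of them close to the lowest normal liver.

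miR-29b is the member made from both loci. In normal liver it read 0.873, 1.67 and 1.26, an SD of 0.47 on the log2 scale, the widest of its groups. After 1/3PH it read 0.906 and 0.776 at 6H and 0.640, 0.536 and 0.710 at 12H. After 2/3PH it read 0.740, 0.561 and 0.677 at 6H and 0.541, 0.534 and 0.785 at 12H. Every 12H array and every 2/3PH 6H array of miR-29b lay below the lowest normal liver, whereas 1 of the 1/3PH 6H arrays lay inside the normal range. The late arrays were higher, with 1.06, 1.19 and 1.01 at 24H and 1.42, 1.32 and 1.33 at 36H after 1/3PH. After 2/3PH they read 1.62, 1.24 and 1.01 at 24H and 1.58, 1.27 and 1.33 at 36H. All 12 late arrays fell inside the range of the normal livers.

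miR-29c is made from chromosome 13 alone. In normal liver it read 1.29, 1.46 and 1.50. After 1/3PH it read 1.28 and 1.04 at 6H and 0.858, 0.430 and 0.899 at 12H, again with the dim array lowest. After 2/3PH it read 1.04, 0.754 and 0.861 at 6H and 0.731, 0.704 and 0.859 at 12H. The early arrays ran from 0.430 to 1.28. The highest of them, at 6H after 1/3PH, was nearly level with the lowest normal liver (log2 difference -0.0087). Late 1/3PH livers read 1.38, 1.41 and 1.03 at 24H and 1.28, 1.68 and 1.58 at 36H. Late 2/3PH livers read 1.61, 1.08 and 1.02 at 24H and 1.34, 1.05 and 1.04 at 36H. The 1/3PH livers at 36H thus straddled the normal ones. After 2/3PH, 2 of the 3 livers lay below the normal ones at 24H, and again 2 of the 3 at 36H.

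**Figure D1:**
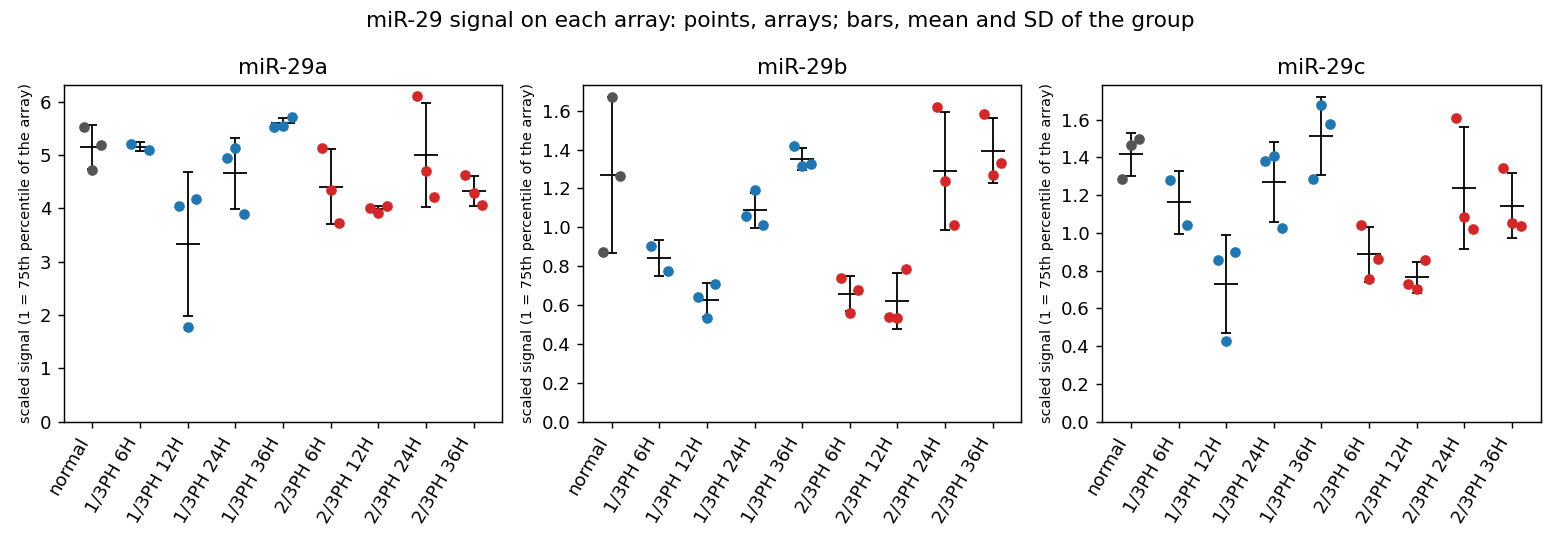
Scaled signal of miR-29a, miR-29b and miR-29c (y axes, 1 is the 75th percentile of the array) on each of the 26 arrays by group (x axes); points are arrays, and bars show the mean and SD. The 12H arrays of both operations lie below the 3 normal livers for each member, and the lowest miR-29a point, 1.78, is the dim 1/3PH 12H array.

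Ordered by group mean of log2 signal, the highest group was 1/3PH 36H for miR-29a and miR-29c and 2/3PH 36H for miR-29b. The lowest was 1/3PH 12H for miR-29a and miR-29c and 2/3PH 12H for miR-29b. The widest neighbouring steps of miR-29b were from 1/3PH 24H down to 1/3PH 6H (0.37 on the log2 scale) and from there to 2/3PH 6H (0.36). For miR-29c the widest was from 2/3PH 36H down to 2/3PH 6H (0.37). For miR-29a it was from 2/3PH 12H down to 1/3PH 12H (0.36), the group with the dim array. The groups were ordered by these same values, so the steps are a description only.

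The first comparison asked how the remnant differed from normal liver at each time. At 12H miR-29b and miR-29c fell to about the same extent in both operations, whereas miR-29a did not pass the test in either. After 1/3PH the fold of miR-29b was 0.509 (95% confidence interval 0.376 to 0.691, limma adjusted p = 0.0117) and that of miR-29c was 0.489 (0.347 to 0.689, adjusted p = 0.0117). After 2/3PH the fold of miR-29b was 0.497 (0.367 to 0.674, adjusted p = 0.0150) and that of miR-29c was 0.539 (0.382 to 0.759, adjusted p = 0.0274). Of the 144 miRNAs tested, 2.78% were lower than normal at 12H after 1/3PH and 6.25% after 2/3PH by the same rule. miR-29c and miR-29b ranked 1 and 2 from the bottom of the 144 log2 differences after 1/3PH, and miR-29b and miR-29c ranked 1 and 3 after 2/3PH. The ranges of all 3 members did not overlap those of normal liver at 12H, which was the case in that direction for 9.72% of the miRNAs after 1/3PH and 16.0% after 2/3PH. Both operations were set against the same 3 normal livers, so these results are not independent of each other.

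miR-29a had a fold of 0.605 at 12H after 1/3PH (0.435 to 0.841, adjusted p = 0.0564) and of 0.775 after 2/3PH (0.558 to 1.08, adjusted p = 0.423). Without the dim array, the 1/3PH log2 difference of miR-29a moved from -0.72 to -0.32. The difference of miR-29c then moved from -1.03 to -0.69 and no longer passed (adjusted p = 0.0543), while miR-29b, at -0.86, still did (adjusted p = 0.0378).

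These 12H results rest on single arrays. Leaving out normal replicate 2 or 3 ended all 4 calls (adjusted p from 0.0582 to 0.106), while leaving out normal replicate 1 ended none. Without 2/3PH 12H replicate 2, miR-29b (-0.91, adjusted p = 0.10) and miR-29c (-0.84, adjusted p = 0.134) no longer passed after 2/3PH, and neither did any other miRNA by limma (0 of 144, with 18 at an unadjusted p under 0.05). Without 2/3PH 12H replicate 1, the miR-29c call after 2/3PH was lost (-0.86) and that of miR-29b was not. With 1 normal liver left out, the log2 difference of miR-29b after 1/3PH was between -1.22 and -0.75 and that of miR-29c between -1.10 and -0.99. With the slide as a fixed block the differences stayed between -1.07 and -0.94, but none of the 4 passed (adjusted p from 0.0944 to 0.128). Nor did any of the 4 with normexp background correction (-0.60 to -0.35), and the 2 calls after 2/3PH were also lost in the deposited log2 values (-0.85 and -0.78).

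Within a slide, early arrays could be set against the 1 normal liver on the same slide. On slide 4, 5 early arrays lay beside normal replicate 1, and 4 of them were below it for miR-29b (log2 differences from -0.64 to 0.05) and 5 for miR-29c (-0.77 to -0.0087). On slide 5, 3 early arrays lay beside normal replicate 2, and all 3 were below it for miR-29b (-1.64 to -1.09) and for miR-29c (-1.77 to -0.77). For miR-29a all 5 and all 3 were below the normal liver of their slide (-0.45 to -0.09 and -1.41 to -0.23). Early arrays thus lay below their own slide's normal liver in all but 1 of these comparisons, a miR-29b value at 6H after 1/3PH. Some late arrays were below the normal liver of their slide too. The 1 late array on slide 5, from 24H after 1/3PH, also lay below its normal liver for miR-29a (-0.28), miR-29b (-0.72) and miR-29c (-0.51). On slide 3, the 2 arrays from 36H after 2/3PH lay below normal replicate 3 for miR-29a (-0.28 and -0.17) and miR-29c (-0.51 and -0.16). They lay above it for miR-29b (0.0077 and 0.33). By scan day, 7 of 8 early and 0 of 8 late arrays of day 1 lay below normal replicate 1 for miR-29b (late 0.22 to 0.89). For miR-29c these were 8 of 8 and 3 of 8, and for miR-29a 8 of 8 and 5 of 8. On day 3 all 3 early and all 2 late arrays lay below normal replicate 2 for each member.

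At 6H no member passed the test, in either operation, and neither did any other miRNA (0%), although 8 of 144 after 1/3PH and 15 of 144 after 2/3PH had an unadjusted limma p under 0.05. miR-29b after 2/3PH had the lowest log2 difference of the 144, at -0.90 (fold 0.534, 0.394 to 0.724, adjusted p = 0.0535). It passed when normal replicate 1 was left out, at -1.15 (adjusted p = 0.00328). It also passed when the adjustment covered the 82 miRNAs detected on every array (adjusted p = 0.0222). That filter was the only 1 of 9 other settings under which it passed, with differences from -0.99 to -0.32 over them. With each of the 26 arrays left out in turn it ran from -1.15 to -0.68 and passed in 5 runs. miR-29c had a fold of 0.621 at that time (0.441 to 0.875, adjusted p = 0.184) and miR-29a of 0.850 (0.612 to 1.18, adjusted p = 0.703). Without the dim 1/3PH 12H array, which enters here only through the shared estimate of spread, miR-29b (-0.90) and miR-29c (-0.69) both passed at 6H after 2/3PH (adjusted p = 0.0353 each). After 1/3PH, with 2 arrays, the folds were 0.684 for miR-29b (0.487 to 0.962, adjusted p = 0.765), 0.817 for miR-29c (0.557 to 1.20, adjusted p = 0.819) and 1.00 for miR-29a (0.694 to 1.45, adjusted p = 0.994). The arrays of miR-29b and miR-29c at 6H after 2/3PH did not overlap the normal livers, which held for 12.5% of the miRNAs in that direction.

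At 24H and 36H no member passed in either operation, with adjusted p from 0.385 to 0.926. After 1/3PH 0.694% of the miRNAs passed at 24H and 0% at 36H (7 with an unadjusted limma p under 0.05), and after 2/3PH 18.1% and 18.8%. The folds ran from 0.803 (miR-29c, 36H after 2/3PH, 0.570 to 1.13) to 1.13 (miR-29b, 36H after 2/3PH, 0.835 to 1.54). These intervals leave room for differences of about the size of a 0.57-fold decrease, so the late livers are not shown to equal normal liver.

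**Figure D2:**
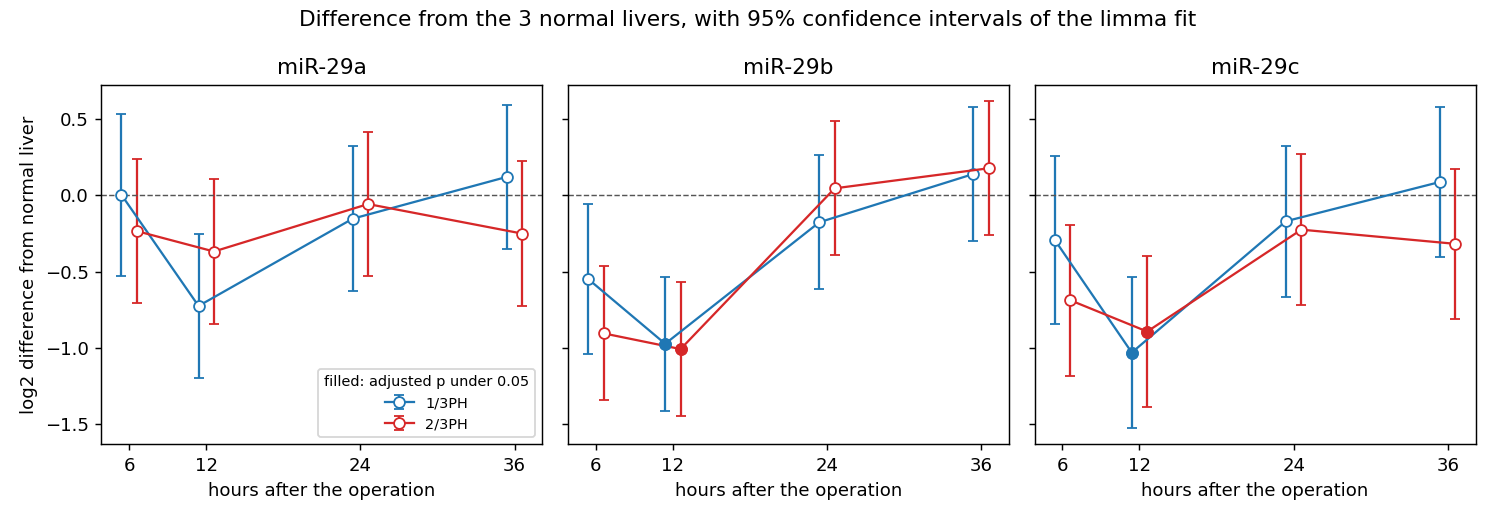
Log2 difference from the 3 normal livers (y axis) by hours after the operation (x axis) for each member, 1/3PH in blue and 2/3PH in red; bars are 95% confidence intervals of the limma fit and filled points have an adjusted p under 0.05. The filled points are miR-29b and miR-29c at 12H in both operations, from -1.03 to -0.89.

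The second comparison set the late remnants (24H and 36H) against the early ones (6H and 12H) within each operation, without the normal livers. miR-29b and miR-29c rose in both operations, and miR-29a did not pass the test in either. After 1/3PH miR-29b was 1.67-fold higher in the late livers (1.33 to 2.10, adjusted p = 0.00698) and miR-29c 1.54-fold (1.19 to 1.99, adjusted p = 0.0306). After 2/3PH miR-29b was 2.10-fold higher (1.69 to 2.60, adjusted p = 2.05e-05) and miR-29c 1.43-fold (1.12 to 1.83, adjusted p = 0.0192). Among the 144 miRNAs, 6.94% were higher late after 1/3PH and 18.8% after 2/3PH. After 1/3PH, miR-29b and miR-29c ranked 1 and 2 from the top of the 144 differences, and after 2/3PH they ranked 6 and 28. The folds of miR-29a were 1.27 after 1/3PH (0.993 to 1.63, adjusted p = 0.339) and 1.11 after 2/3PH (0.878 to 1.40, adjusted p = 0.516).

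The arrays behind the miR-29b result were fully separated. After 1/3PH the 5 early arrays had scaled signals of 0.536 to 0.906 and the 6 late arrays of 1.01 to 1.42. After 2/3PH the 6 early arrays had 0.534 to 0.785 and the 6 late arrays 1.01 to 1.62. Late arrays above all early arrays were found for 2.78% of the miRNAs after 1/3PH and 11.1% after 2/3PH. For miR-29c the early and late arrays overlapped in both operations.

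The miR-29b call after 2/3PH held with each of the 26 arrays left out in turn (log2 differences 0.98 to 1.16), and after 1/3PH with 25 of them, the exception being 1/3PH 6H replicate 2 (0.69, adjusted p = 0.0730). The miR-29c calls were less stable, holding with 19 of 26 arrays left out after 1/3PH (0.45 to 0.72) and with 23 after 2/3PH (0.42 to 0.58), and without the dim array the 1/3PH difference was 0.45 (adjusted p = 0.0592). With normexp background correction the miR-29b rise after 2/3PH was still called (0.57), and the other 3 were not (0.26 to 0.33); both miR-29c calls were also lost with quantile normalization and with slide as a random block.

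Within scan day 1, which held most of these arrays, the late minus early log2 difference of miR-29b was 0.74 after 1/3PH (5 late and 4 early arrays) and 1.11 after 2/3PH (3 and 4), with no overlap in either. Within the same day miR-29c gave 0.53 after 1/3PH, with no overlap, and 0.60 after 2/3PH, with overlap. Slide 1 held 2 late and 1 early array of 1/3PH, with differences of 0.66 for miR-29b and 0.63 for miR-29c. No slide held both early and late arrays of 2/3PH, so slide and time cannot be told apart there.

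**Figure D3:**
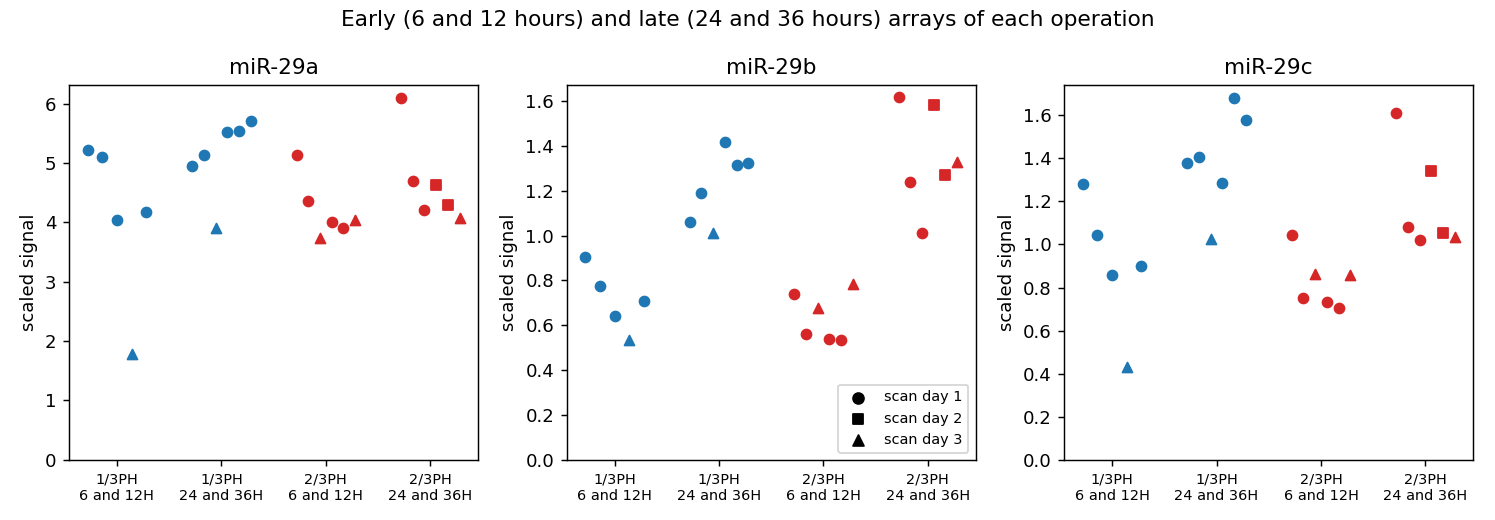
Scaled signal (y axes) of the early (6 and 12H) and late (24 and 36H) arrays of each operation (x axes), with symbols for the 3 scan days. For miR-29b the early arrays end at 0.906 after 1/3PH and 0.785 after 2/3PH, and the late arrays of both operations begin at 1.01.

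**Figure D4:**
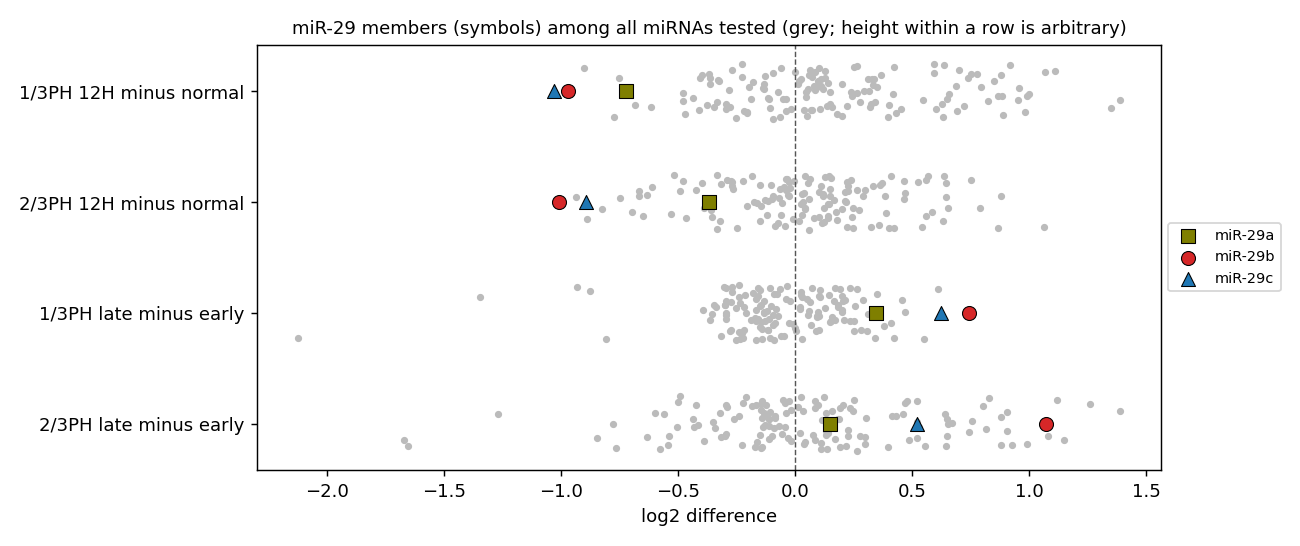
Log2 differences (x axis) of all 144 miRNAs tested (grey points) in 4 comparisons (rows), with the 3 members as symbols; height within a row carries no value. At 12H miR-29b and miR-29c lie at the low end of both rows, and in the late minus early row of 1/3PH at the high end.

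The third comparison, 2/3PH minus 1/3PH at each time, asked whether the larger resection changed the members more. No member passed at any of the 4 times, with adjusted p from 0.375 to 0.956, while 0% of the miRNAs passed at 6H and 12H (3 and 9 with an unadjusted limma p under 0.05), 2.78% at 24H and 15.3% at 36H. The widest differences were in miR-29c, with folds of 0.760 at 6H (0.518 to 1.11) and 0.755 at 36H (0.536 to 1.06). For miR-29b the folds were 0.781 at 6H (0.555 to 1.10), 0.976 at 12H (0.720 to 1.32), 1.17 at 24H (0.860 to 1.58) and 1.03 at 36H (0.757 to 1.39). At 12H the interval of miR-29b limits any difference between the operations to between 0.720-fold and 1.32-fold. The late minus early differences of the operations were also set against each other. miR-29b rose by 0.33 more on the log2 scale after 2/3PH than after 1/3PH (SE 0.22, adjusted p = 0.456). The same value was -0.10 for miR-29c (SE 0.24, adjusted p = 0.865) and -0.20 for miR-29a (SE 0.23, adjusted p = 0.764). Of all miRNAs 6.94% passed, so no difference in time course between operations was shown for the members. Without the dim array the values were 0.38 for miR-29b, 0.070 for miR-29c and 0.0036 for miR-29a, and none passed. At 12H, 2/3PH minus 1/3PH then moved from 0.36 to -0.045 for miR-29a and from 0.14 to -0.21 for miR-29c. For miR-29b it moved from -0.035 to -0.14, and none passed.

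Because miR-29b comes from both loci and the others from 1 each, ratios between members within an array were also followed, which do not depend on the factor an array was divided by. Ratios are given as log2 values minus their mean in normal liver. After 2/3PH, miR-29b over miR-29a averaged -0.67 at 6H (SD 0.25, n = 3), -0.64 at 12H (SD 0.30), 0.10 at 24H (SD 0.08) and 0.43 at 36H (SD 0.11). miR-29b over miR-29c went from -0.22 at 6H (SD 0.08) and -0.11 at 12H (SD 0.17) to 0.27 at 24H (SD 0.11) and 0.50 at 36H (SD 0.06). miR-29b, the member of both loci, thus moved relative to each of the others. The normal livers themselves spread from -0.60 to 0.57 in miR-29b over miR-29a, so no ratio was tested against them.

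Late and early arrays were compared for the 3 ratios in both operations by a two-sided exact permutation test over arrays, adjusted over these 6 comparisons. The test was chosen after the values had been seen. After 2/3PH all 3 ratios were higher late, by 0.92 for miR-29b over miR-29a (exact p = 0.00216, the smallest that 6 against 6 arrays allow, adjusted p = 0.00649), by 0.37 for miR-29c over miR-29a (exact p = 0.00433, adjusted p = 0.00866) and by 0.55 for miR-29b over miR-29c (exact p = 0.00216, adjusted p = 0.00649). Early and late 2/3PH arrays shared no slide, so the permutation test cannot tell time from slide in these 2/3PH ratios. After 1/3PH, miR-29c over miR-29a was higher late by 0.28 (exact p = 0.0130, adjusted p = 0.0195). miR-29b over miR-29a differed by 0.37 (exact p = 0.0563, adjusted p = 0.0675) and miR-29b over miR-29c by 0.09 (exact p = 0.606, adjusted p = 0.606). Without the dim array both passed, at 0.54 for miR-29b over miR-29a (exact p = 0.00952, adjusted p = 0.0143) and 0.24 for miR-29b over miR-29c (exact p = 0.0286, adjusted p = 0.0286), so the 1/3PH result for these ratios turns on that array. With quantile normalization and in the deposited log2 values, miR-29b over miR-29a passed after 1/3PH (0.54 and 0.56) and miR-29c over miR-29a did not (0.47 in both). With normexp background correction neither ratio to miR-29a passed in either operation, and both turned negative after 1/3PH (-0.03 for miR-29b and -0.09 for miR-29c), whereas miR-29b over miR-29c still passed after 2/3PH.

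**Figure D5:**
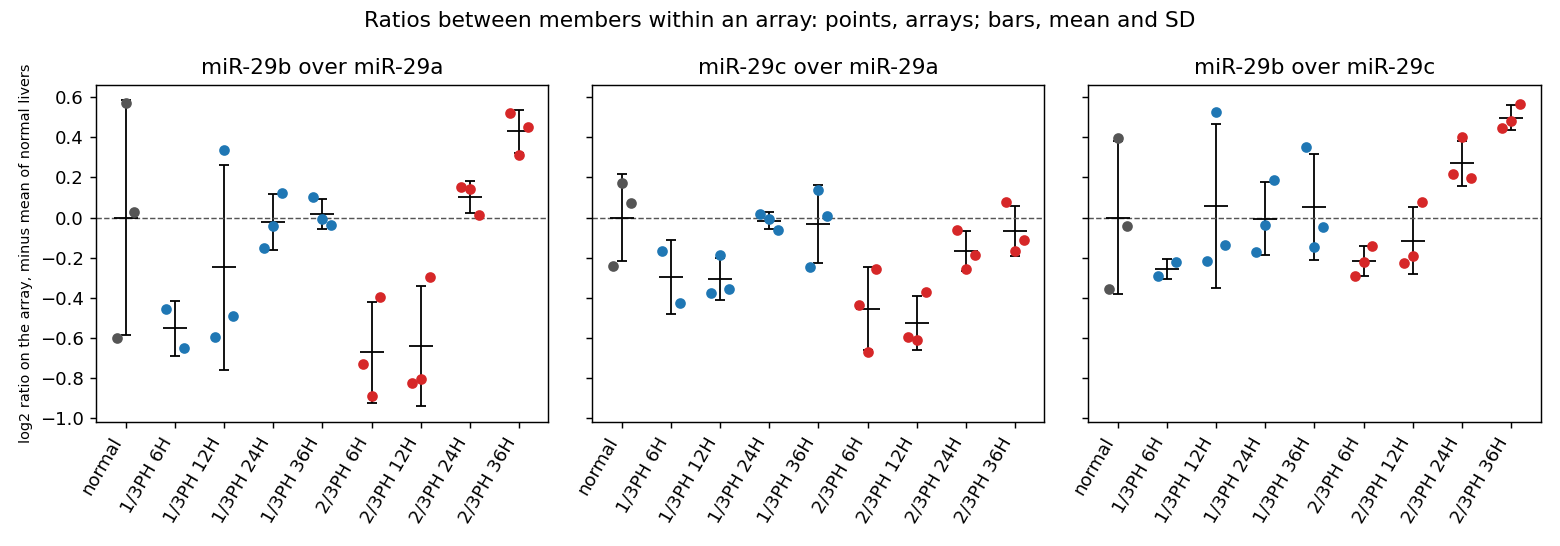
Log2 ratio of 2 members on the same array minus its mean in the normal livers (y axis) by group (x axes); points are arrays, and bars show the mean and SD. After 2/3PH, miR-29b over miR-29a moves from -0.67 at 6H to 0.43 at 36H, and the normal livers spread from -0.60 to 0.57.

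The 2 probes of a member gave like results. At 12H the brighter and the dimmer probe of miR-29b differed from normal liver by -0.98 and -0.96 after 1/3PH and by -0.98 and -1.07 after 2/3PH, on the log2 scale of group means. Those of miR-29c gave -1.01 and -1.06 after 1/3PH and -0.88 and -0.91 after 2/3PH. Late minus early, the miR-29b probes gave 0.77 and 0.69 after 1/3PH, and 1.08 and 1.04 after 2/3PH. For miR-29a, whose brighter probe carried 83.6% of the signal, the probes differed in sign at 6H (0.04 and -0.16) and 36H (0.18 and -0.16) after 1/3PH.

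The other arms of the hairpins, which the array lists as star strands, were at or near the detection limit. miR-29a* and miR-29b-1* were detected on 0 of 26 arrays. miR-29c* was detected on 1 array, normal replicate 2. miR-29b-2* was called on 1 array, 1/3PH 6H replicate 2, but its signal there, with spots marked as outliers left out, was negative (-15.7 units). No course over time can be given for them.

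Among the 79 other miRNAs detected on all arrays, those with the pattern most like each member over the 9 group means were found by Pearson correlation, as a description. For miR-29b they were miR-101b (r = 0.97), miR-19b, from the miR-17 cluster (0.97), and miR-324-3p (0.92). For miR-29c they were miR-30e (0.91), miR-30a (0.86) and miR-192, a hepatocyte-enriched miRNA (0.86). For miR-29a they were miR-103 (0.84), miR-192 (0.73) and miR-126, an endothelial miRNA (0.72). Between members the values were 0.90 for miR-29a with miR-29c, 0.89 for miR-29b with miR-29c and 0.68 for miR-29a with miR-29b. The 9 means share the scaling of their arrays and the dim array. Over the deviations of the 26 arrays from their group means, r was 0.73 for miR-29b with miR-101b, 0.62 with miR-19b and -0.10 with miR-324-3p. For miR-29c it was 0.69 with miR-30e, 0.44 with miR-30a and 0.30 with miR-192. For miR-29a it was 0.79 with miR-103, 0.13 with miR-192 and 0.83 with miR-126. Between members it was 0.86 for miR-29a with miR-29c, 0.66 for miR-29b with miR-29c and 0.36 for miR-29a with miR-29b.

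3 lists of miRNAs known from the same settings were read beside the family, none of which holds a member. Of the miRNAs linked to stellate cell activation and scarring, 9 of 11 were tested. None of the 9 passed against normal liver at 12H in either operation, where their median log2 difference was 0.09 after 1/3PH and 0.04 after 2/3PH, beside 0.10 and 0.04 for all 144. In the late minus early comparison 0 of 9 passed after 1/3PH, and 3 of 9 were higher after 2/3PH, namely miR-21 (0.93), miR-27a (0.53) and miR-34a (1.26), a p53 target, beside 6.94% and 18.8% of all miRNAs, with a list median of 0.15 after 2/3PH beside 0.04 for all.

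Of the miRNAs that MYC is known to repress, as it does miR-29, 26 of 28 were on the array, and all 26 were tested. At 12H, 0 of 26 passed after 1/3PH and 2 of 26 were lower after 2/3PH, miR-30e (-0.53) and miR-22 (-0.47). The shares of all 144 miRNAs that were lower at 12H were 2.78% after 1/3PH and 6.25% after 2/3PH. Late against early, 2 of 26 were higher and 1 lower after 1/3PH, and 2 were higher and 10 lower after 2/3PH, with medians of -0.04 and -0.16. Of all miRNAs, 6.94% were higher and 2.78% lower late after 1/3PH, and 18.8% were higher and 16.0% lower after 2/3PH. miR-30e was higher late in both operations (0.35 and 0.30), like miR-29b and miR-29c, whereas miR-26a was lower late after 2/3PH (-0.55).

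Of the 9 miRNAs known to be induced by MYC, from the miR-17 and miR-106b clusters, 0 passed at 12H after 1/3PH. After 2/3PH 1 was lower, miR-19b (-0.63). Among all 144, 2.78% were lower at 12H after 1/3PH and 6.25% after 2/3PH. Late against early, 2 of 9 were higher after 1/3PH and 8 of 9 after 2/3PH, beside 6.94% and 18.8% of all miRNAs. The list medians were -0.0022 and 0.90, beside -0.08 and 0.04 for all miRNAs.

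Markers of liver cell types were read beside the 12H result, as the range of the summed scaled signal over the arrays of a group. The hepatocyte markers (miR-122, miR-192 and miR-194, all detected on every array) ran from 157 to 187 in normal liver, 177 to 201 at 12H after 1/3PH and 171 to 197 after 2/3PH. The markers of stellate and other mesenchymal cells ran from 1.22 to 1.57 in normal liver, 1.21 to 1.67 at 12H after 1/3PH and 1.37 to 1.51 after 2/3PH. In this list miR-199a-3p, miR-214 and miR-143 were detected on all 26 arrays, miR-199a-5p on 23 and miR-145 on 0. The summed signals of both lists overlapped normal liver. Within the hepatocyte list, however, miR-192 was lower at 12H after 1/3PH (-0.41, limma adjusted p = 0.0117) and after 2/3PH (-0.34, adjusted p = 0.0274). These were the same comparisons and direction as for miR-29b and miR-29c. The other 2 did not pass and lay on the other side of normal liver. miR-122 differed by 0.13 after 1/3PH and 0.12 after 2/3PH, and miR-194 by 0.05 and 0.06.

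The other marker lists moved more in places. The endothelial list (miR-126 and miR-126*) ran from 2.49 to 3.06 in normal liver, 1.58 to 2.73 at 12H after 1/3PH and 2.51 to 2.63 after 2/3PH. The leukocyte list, 4 of 5 on the array and miR-142-5p of them detected on 0 arrays, ran from 0.62 to 0.78, 0.49 to 0.76 and 0.46 to 0.71 in the same groups, and the red cell list from 0.42 to 0.49, 0.28 to 0.45 and 0.26 to 0.81. The biliary and other epithelial list, of which miR-200c and miR-141 were detected on 0 arrays, was above normal liver (0.15 to 0.30) at 12H, at 0.47 to 0.62 after 1/3PH and 0.32 to 0.34 after 2/3PH. Of this list, miR-200b (1.35) and miR-429 (1.11) were higher at 12H after 1/3PH.

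Some markers also moved between early and late livers. After 2/3PH the 3 tested biliary and other epithelial markers were higher late, miR-200a by 0.56, miR-200b by 0.65 and miR-429 by 0.83, and the summed signal ran from 0.20 to 0.34 early and from 0.34 to 0.65 late. The leukocyte miRNA miR-150 was lower late (-0.51), with a summed leukocyte signal of 0.46 to 0.71 early and 0.38 to 0.61 late. After 1/3PH, miR-192 of the hepatocyte list was the 1 marker that passed, higher late by 0.23 (adjusted p = 0.0341). The hepatocyte sum ran from 173 to 201 early and 147 to 199 late after 1/3PH and from 171 to 197 and 145 to 186 after 2/3PH. No stellate, endothelial or red cell marker passed late against early in either operation. The part of these cell types in the miR-29 results was not tested.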

How the data were processed

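Per the labels, total RNA from each liver was labelled with Cy3 and hybridised to 1 Agilent rat miRNA array. The authors scanned the arrays and deposited, for each spot, fluorescence intensity values from Agilent Feature Extraction 10.7.3.1, which subtracts background and does not normalize between arrays. The authors also deposited log2 values already normalized between arrays, whose 104 largest values are identical in all columns; they served as an alternative. Here the processed signal was averaged over the spots of a probe not marked as outliers, summed over the probes of each miRNA, divided by the array's 75th percentile over 109 probes well above background on every array, floored at the lowest signal well above background and taken to log2.

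Differences were tested with limma 3.58.1 (lmFit and eBayes, R 4.3.3) in 1 fit of 26 arrays and 9 groups and 144 miRNAs, those detected throughout 1 or more groups. It had 15 contrasts, Benjamini-Hochberg adjustment within each and a threshold of 0.05. The fit was first tested on 20 simulations of 1 contrast, 2/3PH 6H minus normal, with noise that held no slide effect. Log2 changes of 1 were placed in 30 of the 144 miRNAs. The fit recovered 75% of them, and 4.86% of its calls were false. The other steps used scipy 1.17.1, pandas 2.3.3, numpy 2.4.6 and, for plots, matplotlib 3.10.9 in Python 3.11.15. The number of arrays limits the precision. The members, the lists and the comparisons were chosen with earlier results of these data known. Named miRNAs are the members, their star strands, the 3 miRNAs, of those detected on all arrays, most correlated with each member over the 9 group means, and up to 4 of each list. Alternatives were other scalings, background correction and filters, slide and scan day as blocks, and each array left out; a test of ratios between members was added after their values had been seen. The study's main text names no normalization or test for the arrays. Sequences and positions are those of RefSeq (GRCr8).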

Additional observations from a re-analysis of the deposited data

How the results depend on the processing

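All 45 differences of the members (3 members in 15 comparisons) were recomputed under 9 other settings and with each array left out in turn. Values are log2 differences from limma. The call that miR-29b was higher late after 2/3PH held under 7 of 8 settings (0.57 to 1.07, but 1.00 and not called with the all-probe percentile) and with each of the 26 arrays left out. The other calls were each lost under at least 2 settings. The cause was not tested. No paired analysis was possible because the labels number no replicates across groups.

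Scaling to the 75th percentile of all probes moved the median of all 144 miRNAs by up to 1.24 at 6H after 1/3PH and -1.32 in 2/3PH minus 1/3PH at 6H. Against normal liver it lost the calls at 12H after 2/3PH (miR-29b -1.33, miR-29c -1.21) and gained miR-29a at 12H after 1/3PH (-1.78). It lost the late minus early calls after 1/3PH (miR-29b 0.38, miR-29c 0.26) and after 2/3PH (1.00 and 0.45). In 2/3PH minus 1/3PH at 6H it gained all 3 members (-1.51, -1.63 and -1.66), which sit 0.18 to 0.34 below the median of all miRNAs. It turned the sign of miR-29b (0.63) and miR-29c (0.89) at 6H after 1/3PH, of all 3 members at 36H after 1/3PH (-0.45, -0.43 and -0.48) and of miR-29b at 24H after 2/3PH (-0.41). In 2/3PH minus 1/3PH it turned miR-29b at 12H (0.70), miR-29a and miR-29b at 24H (-0.34 and -0.21) and miR-29a and miR-29c at 36H (0.11 and 0.079). It also turned miR-29a late minus early after 1/3PH (-0.020), and the difference between operations for miR-29a (0.10) and miR-29c (0.19).

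Normexp background correction moved the median by up to 0.63. It lost the 12H calls after 1/3PH (miR-29b -0.35, miR-29c -0.39) and 2/3PH (-0.60 and -0.57), and late minus early after 1/3PH (0.33 and 0.26) and for miR-29c after 2/3PH (0.28). Relative to the median of all miRNAs, the 12H differences of miR-29b and miR-29c came to -0.91 and -0.95 (1/3PH), then -0.75 and -0.72 (2/3PH). It turned miR-29a at 6H after 1/3PH (-0.0071), miR-29b in 2/3PH minus 1/3PH at 6H (0.059), miR-29c at 12H (-0.17) and the difference between operations for miR-29c (0.022). Of the ratios it turned miR-29b and miR-29c over miR-29a after 1/3PH (-0.035 and -0.086).

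The deposited log2 values moved the median by up to -0.28. They lost the 12H calls after 2/3PH (-0.85 for miR-29b, -0.78 for miR-29c) and miR-29c late minus early after 2/3PH (0.39). They turned miR-29a at 6H after 1/3PH (-0.034), miR-29b at 24H after 2/3PH (-0.037) and miR-29b in 2/3PH minus 1/3PH at 6H (0.063) and 12H (0.064). Quantile normalization lost miR-29c late minus early after 1/3PH (0.57) and 2/3PH (0.39). It turned miR-29a (0.10) and miR-29b (-0.035) at 24H after 2/3PH and miR-29b in 2/3PH minus 1/3PH at 12H (0.069).

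The slide as a fixed block had values for 27 of the 45. It lost the 12H calls after 1/3PH (miR-29b -0.97, miR-29c -1.05) and 2/3PH (-1.07 and -0.94). As a random block it lost miR-29c late minus early (0.62 after 1/3PH, 0.51 after 2/3PH) and gained miR-29a at 12H after 1/3PH (-0.74). Scan day as a block lost miR-29c late minus early after 2/3PH (0.48), gained miR-29a at 12H after 1/3PH (-0.81), and turned miR-29a at 36H after 1/3PH (-0.10), miR-29a in 2/3PH minus 1/3PH at 24H (-0.046) and miR-29b at 36H (-0.16). The 3 blocks turned miR-29a at 6H after 1/3PH (-0.22 with the fixed slide, -0.10 with the random slide, -0.22 with the day). Testing the 209 miRNAs detected on at least 1 array lost miR-29c at 12H after 2/3PH (-0.89) and late minus early after 1/3PH (0.62). Testing the 82 detected on every array gained miR-29a at 12H after 1/3PH (-0.72) and miR-29b at 6H after 2/3PH (-0.90).

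With each array left out in turn, called results ranged from -1.22 to -0.75 (miR-29b) and -1.22 to -0.69 (miR-29c) at 12H after 1/3PH, and from -1.25 to -0.78 and -0.98 to -0.84 after 2/3PH. Late minus early ranged from 0.69 to 0.80 (miR-29b) and 0.45 to 0.72 (miR-29c) after 1/3PH and from 0.42 to 0.58 (miR-29c) after 2/3PH. Some runs gained a call for miR-29a at 12H after 1/3PH (-0.94 to -0.32) and, at 6H after 2/3PH, for miR-29b (-1.15 to -0.68) and miR-29c (-0.81 to -0.58). Uncalled differences from normal liver that changed sign were miR-29a at 6H after 1/3PH (-0.056 to 0.057) and 24H after 2/3PH (-0.21 to 0.059), and miR-29b at 24H (-0.42 to 0.048) and 36H (-0.10 to 0.37) after 1/3PH and at 24H (-0.20 to 0.27) and 36H (-0.067 to 0.40) after 2/3PH. In 2/3PH minus 1/3PH they were miR-29a (-0.045 to 0.57), miR-29b (-0.22 to 0.061) and miR-29c (-0.21 to 0.33) at 12H, miR-29a (-0.055 to 0.21) and miR-29c (-0.26 to 0.069) at 24H and miR-29b at 36H (-0.057 to 0.10). The difference between operations changed sign for miR-29a (-0.30 to 0.0036) and miR-29c (-0.20 to 0.070). Where a group was left with 1 array, its spread was taken from the other groups.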
